A study of Bos taurus with 71 samples.

Results

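The genes described here are 35 bovine genes of complement, coagulation and the serpin inhibitors, out of 21510 Ensembl genes measured by RNA-Seq in the gut of young calves. Of these, 18 came from the study's own list for the complement and coagulation pathway. The other 17 were found by symbol in the study's table of immune-related genes expressed in the jejunum or ileum. The members were grouped by role into the classical and lectin pathway, the alternative pathway, the membrane attack complex, anaphylatoxin receptors, complement regulators, coagulation factors and other inhibitors. A last class holds C1QBP and 4 C1QTNF genes, which share the C1q name or domain but are not part of the cascade. No sequence is shown, because none was at hand for these genes.

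Tissue came from Holstein bull calves. There were 3 calves at birth (D0) and 5 at each later age (D7, then D21, then D42), and the rumen, the mid-jejunum and the ileum gave 18 libraries each, 54 in all. The D0 calves were sampled shortly after delivery, had taken no colostrum, and their gut tissue was not rinsed, whereas the older calves had received colostrum and then milk, and their gut tissue was rinsed with buffer. Calves of D21 and D42 also had access to starter feed. Age, diet and rinsing therefore cannot be told apart in D7 vs D0, and these details are given by the study for the jejunum and ileum only. Whole tissue was ground, so fewer cells of a type and less RNA per cell cannot be told apart. Values are read counts scaled to library size (CPM) and rounded to whole numbers as deposited, and depth per library is unknown. A value of 0 therefore stands for less than about 1 CPM.

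Libraries that stood apart were found in the ileum and in the rumen. Against the study's table of CPM for 1280 genes, 33 of 36 jejunum and ileum libraries held the same value for at least 96.72% of genes, and 3 held it for at most 5.78%. These 3 were ileum D0 replicates 1 and 2 and ileum D42 replicate 1. Replicate 1 of D0 had a median correlation of 0.727 with the ileum libraries and 0.817 with the jejunum libraries, replicate 1 of D42 had 0.81 and 0.848, and replicate 2 of D0 had 0.956 and 0.793. Some results on the ileum at D0 and D42 are also given without these 3, and the others include them. The rumen D0 replicate 2 also differed from its group, with a summed level of 6 fibroblast markers of 4811 CPM against 44845 and 47144 CPM in the other rumen D0 libraries. Of the markers of B cells, 7 genes that are abundant in the follicles of the calf ileum, the sum was 1146 to 2571 CPM in the ileum libraries other than D0 replicate 1 (62 CPM) and D42 replicate 1 (235 CPM), 9 to 313 CPM in the jejunum and 18 to 40 CPM in the rumen. The sum of 10 intestinal epithelial markers was 12276 to 39875 CPM in the jejunum, 1528 to 6756 CPM in the ileum and 82 to 480 CPM in the rumen, where 4 of the 10 were listed at 0 in every library of each age group.

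Complement is a set of plasma and tissue proteins that tag and lyse microbes. The classical pathway starts when C1q binds antibody and activates the proteases C1r and C1s, the alternative pathway is driven by factor B, factor D and properdin, and both end in a pore built of C6, C7, C8 and C9. Factor I, C4b-binding protein and C1 inhibitor restrain the cascade. Coagulation runs through tissue factor, factor VII, factor V and factor VIII to fibrin, and the serpins and alpha-2-macroglobulin inhibit its proteases. The liver is the main source of most of these proteins, while macrophages are a known source of C1q and the gut epithelium of factor B.

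All 35 members passed the filter on low values (CPM above 1 in at least 50% of a region's libraries) in the jejunum, 34 passed it in the ileum, where FGG did not, and 26 passed it in the rumen. The study's lists held genes that had passed such a filter in the jejunum or ileum, so passing there was largely fixed in advance. The rumen had no part in those lists, so these counts describe the list and do not compare the regions. The 9 that did not pass in the rumen were C6, C9, C3AR1, C5AR1, CFI, C4BPA, F5, F7 and FGG. C9, the pore-forming subunit of the terminal complex, and F7, the protease that starts coagulation with tissue factor, were listed at 0 in all 18 rumen libraries.

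**Figure D1:**
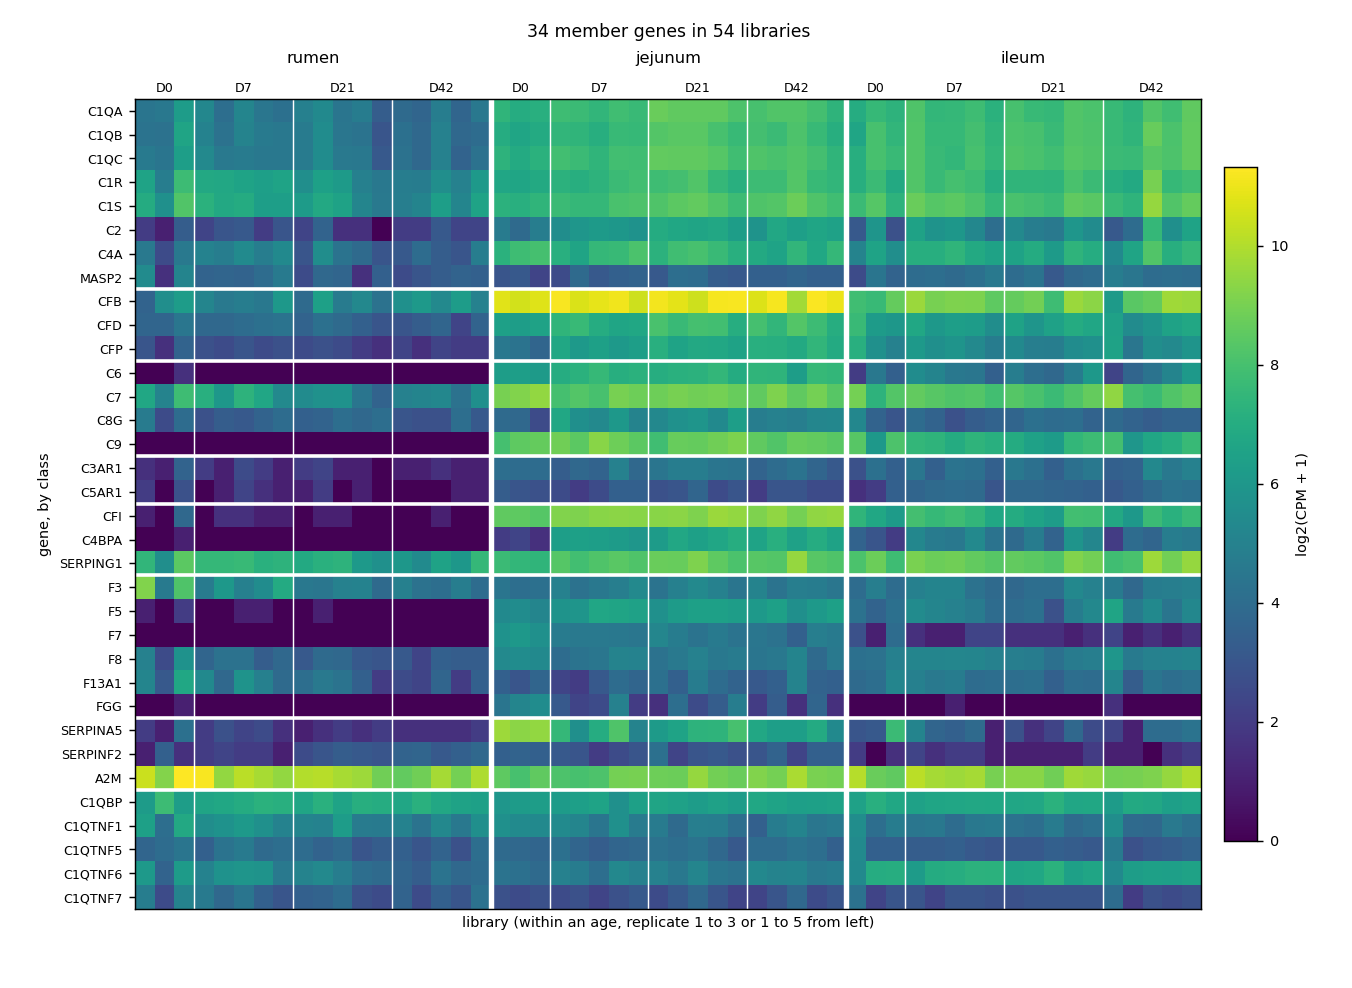
Level of each of 34 of the genes (rows, by class) in each of the 54 libraries (columns, by region and age), in log2(CPM + 1). CFB is brightest in the jejunum, and C6, C9, CFI, C4BPA, F5, F7 and FGG are dark in the rumen.

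The first comparison asked how the jejunum and ileum differed at each age. A gene was called when its adjusted p-value (FDR, limma with Benjamini-Hochberg adjustment over all genes tested) was under 0.05 and its fold change over 2, on log2(CPM + 1), which understates the change of low genes. At D7 the jejunum was higher for 11 members and the ileum for 3, where 27.1% of all genes were called (9.62% with the jejunum higher and 17.5% with the ileum higher). At D21 the counts were 15 and 1 (26.8% of all genes called, 12.1% and 14.7% by direction), and at D42 they were 13 and 2 (20.9%, with 7.64% and 13.3%). At D0 the jejunum was higher for 8 and the ileum for 1, where 8.87% of all genes were called (6.04% and 2.83%). The values of the regions did not overlap for 17, 12, 18 and 15 members at D0, D7, D21 and D42, beside 38.8%, 46%, 45.5% and 25.8% of all genes. The median log2 difference over the members was 0.35, 0.67 and 0.10 at D7, D21 and D42, beside -0.25, -0.12 and -0.15 over all genes. The median at D0 was -0.07, beside -0.05 over all genes. The jejunum count at each age includes FGG, which did not pass the filter in the ileum and was tested through the jejunum alone. Over the 4 ages, 16 members were higher in the jejunum at 1 age or more, 4 were higher in the ileum and 15 were not called. CFB, C6, CFI, F7 and FGG were higher in the jejunum at all 4 ages. The D0 calls rest on 3 libraries a region. The calf was then taken as a block, with its jejunum and ileum as a pair. In that fit 0 members and 0.0143% of all genes were called at D0. Without the block, 14 members had an unadjusted p under 0.05 in limma, beside 4575 of 13942 genes. Leaving out any 1 jejunum library left 0 or 1 call, and the shares of all genes in those fits are not given here. Without the 2 doubted ileum libraries of D0, 1 ileum library is left, which has no spread of its own, so no count is given. The members called at D0 with all libraries kept the direction of their difference there. Without the doubted library of D42, 16 were called at that age, where 28.2% of all genes were called.

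Of the 3 alternative pathway genes, CFB was higher in the jejunum at all 4 ages, and CFD and CFP at D21 and D42 only. CFB encodes factor B, the protease of the alternative pathway convertase. Its level in the jejunum was 1783, 1513 and 1753 CPM at D0, 2328, 1653, 1891, 2170 and 1421 CPM at D7, 2243, 1859, 1408, 2311 and 2363 CPM at D21 and 1706, 2254, 866, 2464 and 2004 CPM at D42. In the ileum it was 227, 194 and 402 CPM at D0, 782, 512, 553, 538 and 361 CPM at D7, 404, 482, 220, 777 and 658 CPM at D21 and 71, 338, 397, 825 and 780 CPM at D42. Every jejunum library lay above every ileum library, with the jejunum D42 replicate 3 lowest in its region and the doubted ileum D42 replicate 1 lowest in its own. The log2 difference was 2.68 ± 0.30 (SE) at D0 (FDR = 0.0153), 2.10 ± 0.30 at D21 (FDR = 7.05e-05) and 2.27 ± 0.61 at D42 (FDR = 0.0117), and at D7 the fold was 3.49 (FDR = 8.29e-06). It was 2.06 at D0 and 1.69 at D42 without the doubted libraries, and at D0 it had an FDR of 0.101 with the calf as a block. CFD, which encodes factor D, the protease that cleaves factor B, was higher in the jejunum at D21 (218 against 93.2 CPM) and D42 (216.4 against 77.6 CPM), with log2 differences of 1.21 ± 0.22 (FDR = 0.00049) and 1.48 ± 0.29 (FDR = 0.00245). Its means were 84 and 113.3 CPM at D0 and 139.2 and 74 CPM at D7, and it was not called at these ages. CFP, which encodes properdin, the stabiliser of the alternative pathway convertase, was 22, 19 and 12 CPM in the jejunum at D0 and 138, 51 and 30 CPM in the ileum, where the first 2 are doubted libraries. All of its jejunum values at D0 lay below those of the ileum, with a log2 difference of -1.74 ± 0.58 that was not called (FDR = 0.101). CFP had means of 80.4 and 47.2 CPM at D7, under the 2-fold threshold (1.74-fold), and was higher in the jejunum at D21 (109 against 38.2 CPM, 2.86-fold, FDR = 2.55e-05) and D42 (137.2 against 51 CPM, 2.92-fold, FDR = 0.00304). Without the doubted library of D42 the log2 differences at that age were 1.55 for CFD and 1.79 for CFP.

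CFI encodes factor I, which cleaves the activated central complement fragments. CFI was 371, 366 and 321 CPM in the jejunum at D0 and 500 to 774 CPM at later ages, against 168, 105 and 73 CPM in the ileum at D0 and 65 to 244 CPM later. The regions did not overlap at any age, and the log2 difference was 1.68 ± 0.32 at D0 (FDR = 0.0354), 1.74 ± 0.19 at D7 (FDR = 7.32e-06), 2.26 ± 0.29 at D21 (FDR = 3.02e-05) and 2.21 ± 0.29 at D42 (FDR = 0.000458). Without the doubted libraries it was 2.25 at D0 and 2.14 at D42, and the block gave an FDR of 0.109 at D0. SERPING1, which encodes C1 inhibitor, was not called between jejunum and ileum at any age, with group means of 186 to 407.2 CPM and 308.3 to 504.2 CPM. C4BPA, a gene of C4b-binding protein, was higher in the jejunum at D7, D21 and D42 and not called at D0. At D42 it was 95, 142, 88, 128 and 90 CPM in the jejunum and 3, 15, 12, 27 and 23 CPM in the ileum. The log2 difference there was 2.93 (FDR = 0.000798), or 2.47 without the doubted library. It was 1.44 at D7 (FDR = 3.44e-05) and 1.97 at D21 (FDR = 0.000656).

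Of the membrane attack complex, C6 was higher in the jejunum at all 4 ages, C8G and C9 were higher at D7, D21 and D42, and C7 was not called at any age. C6, which starts the pore, was 77, 79 and 71 CPM in the jejunum at D0, 128, 148, 191, 134 and 147 CPM at D7, 124 to 177 CPM at D21 and 167, 163, 77, 193 and 181 CPM at D42. In the ileum it was 3, 22 and 10 CPM at D0, 44, 33, 22, 21 and 10 CPM at D7, 13 to 65 CPM at D21 and 4, 12, 19, 33 and 66 CPM at D42. No library of the ileum reached the lowest of the jejunum at the same age, and the difference ran from 5.59-fold at D21 (FDR = 4.97e-05) to 7.63-fold at D0 (FDR = 0.0431). C9 was 461, 355, 622, 447 and 357 CPM in the jejunum at D7 and 177, 163, 123, 165 and 138 CPM in the ileum, a log2 difference of 1.52 ± 0.16 (FDR = 5.64e-06), and it was also called at D21 (1.64 ± 0.30, FDR = 0.000545) and D42 (1.46 ± 0.32, FDR = 0.00456). At D0 the ileum values were 331, 65 and 281 CPM, the first 2 from doubted libraries, and they overlapped those of the jejunum (251, 361 and 398 CPM). C7, which binds the forming complex to membranes, had group means of 355 to 600 CPM in the jejunum and 297 to 367.4 CPM in the ileum.

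**Figure D2:**
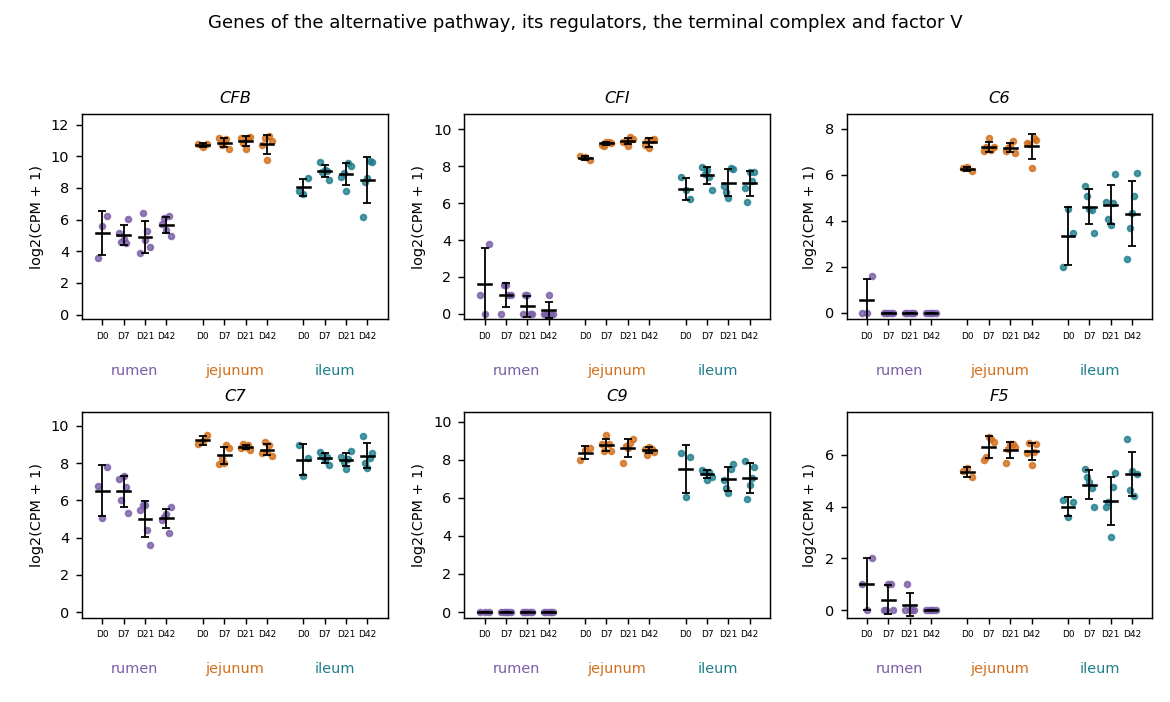
Level in log2(CPM + 1) of 6 genes by region and age. Points are libraries (3 at D0, 5 at later ages), lines the group mean and bars 1 SD. In all 6 the jejunum mean lies above the ileum mean at each age, and the rumen mean lies lowest.

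Most classical pathway genes were not called between jejunum and ileum. C1QA, C1QB and C1QC, which encode the chains of C1q, C1R and C1S, which encode its proteases, and MASP2, the protease of the lectin pathway, passed the threshold at no age. C1QA, for one, had 222, 209, 175, 231 and 202 CPM in the jejunum at D7 and 295, 179, 182, 220 and 150 CPM in the ileum, a log2 difference of 0.05 ± 0.16. Its largest difference was at D21, 365 against 243 CPM (1.52-fold, FDR = 0.00539), under the 2-fold threshold. The group means of C1QB ran from 116 to 289.2 CPM in the jejunum and 177 to 288.6 CPM in the ileum, those of C1QC from 142 to 336.8 CPM and 199 to 284.4 CPM, those of C1R from 107 to 222.4 CPM and 154 to 235.2 CPM, those of C1S from 154 to 313.6 CPM and 231 to 359 CPM, and those of MASP2 from 6.33 to 11.2 CPM and 12 to 18.8 CPM. For MASP2 the ileum mean was above the jejunum mean at each age, by 1.75-fold at D7 (FDR = 0.00815) and 1.7-fold at D42 (FDR = 0.00584), under the threshold. The sum of 9 macrophage markers at D7 was 236 to 389 CPM in the jejunum and 487 to 768 CPM in the ileum, and 3 of the 9 were higher in the ileum. C2, whose product is the classical pathway relative of factor B, was 122, 107, 97, 108 and 78 CPM in the jejunum at D21 and 39, 27, 23, 60 and 43 CPM in the ileum, and was called at that age only (2.74-fold, FDR = 0.000157). C4A was called at D0 only, with 148, 224 and 251 CPM in the jejunum and 32, 93 and 47 CPM in the ileum (3.84-fold, FDR = 0.0457, and 0.109 with the calf as a block). C4A counts may be shared with near-identical C4 copies.

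Among the coagulation genes, F7 was higher in the jejunum at all 4 ages and F5 at D0, D7 and D21. F7 was 25, 23, 23, 22 and 21 CPM in the jejunum at D7 and 2, 1, 1, 4 and 4 CPM in the ileum, a 7.59-fold difference (FDR = 1.6e-06), and 36, 26, 19, 24 and 19 CPM against 2, 2, 2, 1 and 2 CPM at D21 (9.08-fold, FDR = 1.43e-07). At D0 it was 54, 65 and 51 CPM against 6, 1 and 15 CPM, with a log2 difference of 3.24 ± 0.74 (FDR = 0.0485) that became 1.84 without the doubted libraries. F5 encodes factor V, the cofactor of prothrombin activation. It was 55, 59, 102, 96 and 89 CPM in the jejunum at D7 and 43, 34, 30, 25 and 15 CPM in the ileum (2.73-fold, FDR = 0.000365), was also called at D0 (2.53-fold, FDR = 0.0357) and D21 (4-fold, FDR = 0.000547), and was not called at D42 (FDR = 0.0724), where the doubted ileum library held 96 CPM and the others 20 to 41 CPM. FGG, the gamma chain of fibrinogen, was 20, 34 and 45 CPM in the jejunum at D0 and 2 to 30 CPM at later ages, while the ileum was listed at 0 in 16 of its 18 libraries, with 1 CPM in D7 replicate 3 and 2 CPM in the doubted D42 replicate 1. As FGG was tested only through the jejunum, its levels are given as a description. The factor VIII gene F8, F3 (tissue factor) and F13A1 (a subunit of the clot-stabilising factor XIII) were not called as higher in the jejunum at any age.

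SERPINA5, which encodes the protein C inhibitor, was the inhibitor with the widest regional difference. In the jejunum it was 811, 642 and 713 CPM at D0, 183, 49, 126, 290 and 32 CPM at D7, 70, 93, 156, 162 and 258 CPM at D21 and 109, 80, 79, 120 and 41 CPM at D42. In the ileum it was 7, 8 and 210 CPM at D0, 33, 12, 10, 14 and 1 CPM at D7, 6, 2, 4, 13 and 5 CPM at D21 and 4, 1, 15, 15 and 19 CPM at D42. The groups overlapped by 1 library at D7 and not at the other ages. The fold was 9.49 at D7 (FDR = 0.00173), 21.9 at D21 (FDR = 2.28e-06) and 9.33 at D42 (FDR = 0.00201). At D0 the log2 difference of 4.86 ± 1.28 was not called (FDR = 0.0628). Its size rests largely on the doubted ileum libraries at 7 and 8 CPM, while ileum replicate 3, not doubted, stood at 210 CPM. SERPINF2, the plasmin inhibitor, was low in both, with 17, 4, 7, 8 and 6 CPM in the jejunum at D21 and 1, 1, 1, 1 and 3 CPM in the ileum (3.72-fold, FDR = 0.000323). It was also called at D42 (FDR = 0.00189) and not at D7 (1.96-fold). At D0 its call was at the threshold (FDR = 0.04998), with 3, 0 and 2 CPM in the ileum. That call was lost with 0.5 added before the log (FDR = 0.0694) and with the calf as a block (FDR = 0.126). It was also lost in 4 of the 6 fits that left out 1 library.

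C1QTNF6 ran the other way from the genes above and was higher in the ileum at all 4 ages. It encodes a secreted protein of the C1q and tumour necrosis factor family. Its level in the ileum was 40, 127 and 130 CPM at D0, 74, 122, 133, 155 and 150 CPM at D7, 100, 105, 150, 86 and 99 CPM at D21 and 40, 77, 86, 82 and 90 CPM at D42, and in the jejunum 14 to 19 CPM at D0, 16 to 38 CPM at D7, 18 to 35 CPM at D21 and 23 to 38 CPM at D42. The lowest values of the ileum, 40 CPM, were in D0 replicate 1 and D42 replicate 1. The log2 difference of jejunum minus ileum was -2.33 ± 0.49 at D0 (FDR = 0.0422, and 0.124 with the block), -2.15 ± 0.24 at D7 (FDR = 7.23e-06), -2.07 ± 0.19 at D21 (FDR = 2.47e-06) and -1.24 ± 0.23 at D42 (FDR = 0.0018, and -1.45 without the doubted library). All 7 B cell markers were also higher in the ileum at D7, D21 and D42, and the part of these cells in the C1QTNF6 level was not tested. A2M, the broad protease inhibitor alpha-2-macroglobulin, was higher in the ileum at D7 only, with 1143, 881, 802, 876 and 507 CPM against 284, 258, 287, 491 and 503 CPM (2.33-fold, FDR = 0.000833), and F13A1 at the same age with 29, 23, 26, 15 and 16 CPM against 4, 3, 8, 15 and 12 CPM (2.69-fold, FDR = 0.00395). The anaphylatoxin receptor gene C5AR1 was higher in the ileum at D42, with 8, 10, 14, 19 and 17 CPM against 3, 7, 7, 5 and 5 CPM (2.25-fold, FDR = 0.00584). With median-ratio scaling, which moved the median of all genes by 0.262 at D7, 0.175 at D21 and 0.176 at D42 towards the jejunum, A2M and C5AR1 were below the 2-fold threshold (log2 of -0.93 for A2M). The same scaling turned the split of all genes called from 1341 higher in the jejunum and 2435 lower to 1921 and 1696 at D7, from 1691 and 2051 to 2154 and 1611 at D21, and from 1065 and 1852 to 1488 and 1322 at D42, while the members' counts were 14 and 2, 15 and 1, and 14 and 1. C3AR1, the other receptor, was not called, with group means of 13 to 22.6 CPM in the jejunum and 11 to 22.2 CPM in the ileum. All 10 intestinal epithelial markers were higher in the jejunum at D7 and D21 and 7 of 10 at D42, and their part in the jejunum-enriched members was not tested. The 10 were EPCAM, CDH17, KRT8, PIGR, LGALS4, CLDN15, CDHR2, CUBN, APOA4 and APOB. The paper had already reported PIGR and CLDN15 as higher in the jejunum of these calves, so these markers are not independent evidence.

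**Figure D3:**
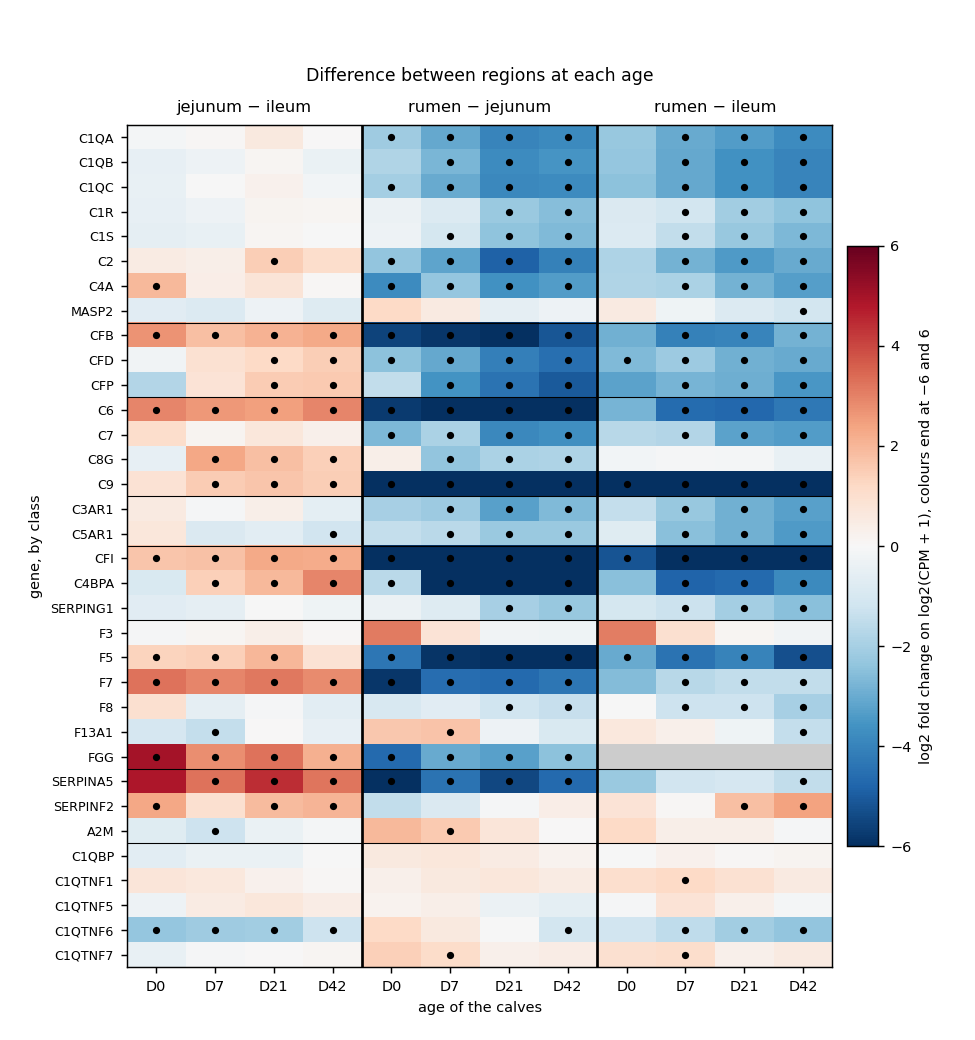
Log2 fold change between regions on log2(CPM + 1) for 34 of the genes (rows, by class) at each age (columns), where red means higher in the region named first. Dots mark the called genes and grey marks FGG, which was not tested between rumen and ileum. The genes that failed the filter in the rumen were tested through the intestine alone. Most cells with a dot are red in the left block and blue in the middle and right blocks.

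The rumen, whose lining is a stratified epithelium, was set against the jejunum and ileum at each age. A member that failed the filter in the rumen was tested only because it is high in the intestine and had to differ, so counts are given first over the 26 members that passed in both regions. Against the jejunum, 13, 16 and 17 of these 26 were lower in the rumen at D7, D21 and D42, where 12.1%, 16.5% and 18.1% of all genes that passed in both were called lower, and 3, 0 and 0 were higher (12.3%, 8.22% and 7.83% of genes). At D0, 8 were lower and 0 higher (8.8% and 5.55%). The values did not overlap for 13, 17, 16 and 17 of the 26 at D0, D7, D21 and D42, beside 38.3%, 34.4%, 35.9% and 40.1% of genes. Their median log2 difference was -0.67, -0.97, -2.11 and -2.40 at the 4 ages, beside 0.00, 0.04, -0.19 and -0.27 over the genes that passed in both. Against the ileum, 15, 15 and 18 of the 26 were lower in the rumen at D7, D21 and D42 (20.4%, 25.9% and 28.3% of genes) and 2, 1 and 1 were higher (11.8%, 11.3% and 8.26%). At D0, 1 was lower (CFD) and 0 higher (1.41% and 1.22%). The log2 difference of CFD was -2.67, or -2.02 without the doubted libraries, and its call was lost in 5 of the 6 fits that left out 1 library. The values of rumen and ileum did not overlap for 7, 15, 16 and 15 of the 26 at the 4 ages, beside 19.2%, 50.1%, 52.3% and 43.5% of genes. With the members that failed the rumen filter included, 15, 22, 25 and 26 of 35 were lower than in the jejunum at D0, D7, D21 and D42 (12.7%, 17.6%, 21.9% and 23.5% of all genes tested, and at D0 20.1% called in all, 7.39% higher), and 4, 23, 23 and 26 of 34 were lower than in the ileum (2.93%, 25.2%, 30.1% and 32.3%, and at D0 5.53% called in all, 2.6% higher). Without rumen D0 replicate 2, 22 of the 35 were called against the jejunum at D0, and the share of all genes in that fit is not given here. Without the doubted ileum library of D42, 26 of the 34 were called against the ileum at that age. There 46.3% of all genes were called, and 42.9% with that library. At D0 only 1 ileum library is left without the doubted ones, so no count is given for it.

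CFB passed the filter in the rumen and was far lower there than in the intestine, while the levels of CFI and C9, which did not pass it, are given as a description. CFB in the rumen was 11, 47 and 75 CPM at D0, 35, 23, 27, 22 and 64 CPM at D7, 14 to 86 CPM at D21 and 30 to 75 CPM at D42, from 34.6-fold (D42) to 66.3-fold (D21) below the jejunum (FDR = 2.45e-08 and 4.32e-08). CFI was 1, 0 and 13 CPM at D0 and 0 to 2 CPM later, against 321 to 774 CPM in the jejunum and 65 to 244 CPM in the ileum. C9, listed at 0 throughout the rumen, was 229 to 622 CPM in the jejunum and 60 to 331 CPM in the ileum. C6, C4BPA, F5 and FGG were likewise listed at 0 to 3 CPM in every rumen library. C4BPA encodes the alpha chain of C4b-binding protein, a cofactor of factor I, and was 1 CPM in rumen D0 replicate 3 and 0 in the other 17.

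The C1q genes were lower in the rumen than in either intestinal region from D7 on. C1QA was 37, 16, 34, 21 and 17 CPM in the rumen at D7, 8.46-fold below the jejunum (FDR = 4.44e-08) and 8.17-fold below the ileum (FDR = 3.44e-07). At D42 it was 14, 12, 27, 12 and 22 CPM, 14.2-fold below the jejunum (FDR = 4.4e-08) and 13.8-fold below the ileum (FDR = 9.96e-07). C1QB and C1QC had like folds (6.71 to 15.4 from D7 to D42, against both regions). At D42 the macrophage marker sum was 110 to 147 CPM in the rumen, 242 to 378 CPM in the jejunum and 523 to 910 CPM in the ileum, 7 of 9 of these markers were lower in the rumen than in the jejunum and 1 was higher, and the part of macrophage number in the C1q levels was not tested. C1R, C1S and SERPING1 were 1.78-fold, 2.08-fold and 1.7-fold below the jejunum at D7 and 5.79-fold, 6.32-fold and 4.79-fold below it at D42, and the difference between these ages was not tested. For C1R the rumen values were 113, 108, 95, 82 and 95 CPM at D7 and 27, 26, 47, 30 and 68 CPM at D42 (FDR = 2.83e-06). The sum of the 6 fibroblast markers was 10500 to 36391 CPM in the rumen at D7 and 5085 to 14992 CPM at D42, and its part was not tested.

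A few members were higher in the rumen. At D7 these were F13A1 (41, 13, 56, 29 and 14 CPM, 3.32-fold above the jejunum, FDR = 0.00535), A2M (2345, 708, 1142, 907 and 723 CPM, 2.99-fold, FDR = 0.000772) and C1QTNF7 (24, 13, 20, 10 and 7 CPM, 2.18-fold, FDR = 0.00555). The call of C1QTNF7 was lost without rumen D7 replicate 1 or 3. Against the ileum at D7, C1QTNF1 (46, 54, 69, 50 and 31 CPM against 21, 22, 15, 22 and 24 CPM, 2.29-fold, FDR = 0.000148) and C1QTNF7 (2.05-fold, FDR = 0.00711) were higher, and 5 of 6 fibroblast markers were higher in the rumen than in either region at this age. C1QTNF1 and C1QTNF7 belong to the same secreted family as C1QTNF6. SERPINF2 was 5, 7, 9, 8 and 7 CPM in the rumen at D21 and 11, 12, 8, 10 and 13 CPM at D42, above the ileum by 3.52-fold (FDR = 2.1e-05) and 5.38-fold (FDR = 9.56e-05), and it was not called against the jejunum at these ages (FDR = 0.841 and 0.196). F3, the gene of tissue factor, which starts coagulation, stood at 568, 24 and 296 CPM in the rumen at D0, with the low value in the replicate that stood apart, and at 14 to 120 CPM at later ages, against 16 to 39 CPM in the jejunum. It was not called at any age (FDR = 0.115 against the jejunum at D0).

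Some calls between rumen and intestine depended on the scaling. Median-ratio scaling moved the median of all genes by up to 0.27 against the jejunum and 0.45 against the ileum, upwards in the rumen. At D42 it turned the split of all genes called against the jejunum from 1421 higher and 3335 lower to 1870 and 2697, and against the ileum it turned 2044 and 3589 to 2556 and 2925 at D7, 1970 and 4289 to 2775 and 3095 at D21, and 1506 and 4606 to 2382 and 3064 at D42. Among the calls it took were those of C1QTNF6 against the jejunum at D42, of C1R against the ileum at D7, of F8 at D21, and of SERPINA5, F13A1 and MASP2 at D42. SERPINA5 against the ileum at D42 (2.75-fold, FDR = 0.0392) was also lost in 8 of the 10 fits that left out 1 library.

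**Figure D4:**
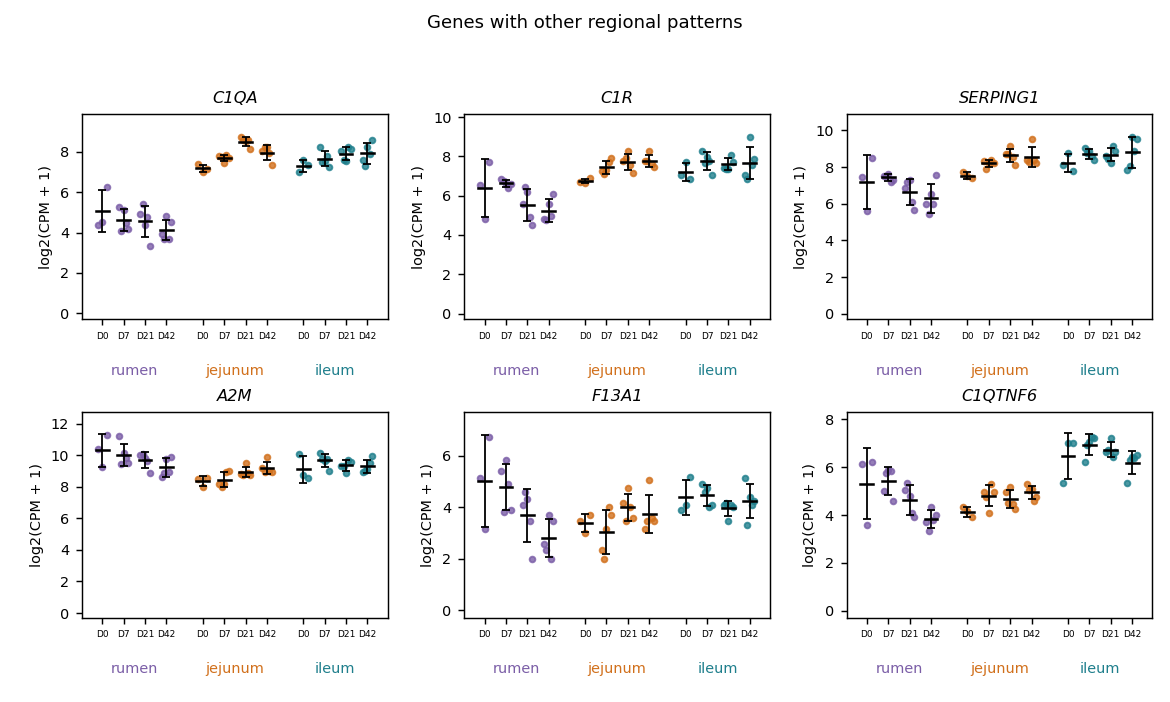
Level in log2(CPM + 1) of 6 genes by region and age. Points are libraries (3 at D0, 5 at later ages), lines the group mean and bars 1 SD. C1QA lies lowest in the rumen, C1QTNF6 highest in the ileum, and A2M and F13A1 lie above the jejunum in the rumen at D7.

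In the jejunum, members passed the threshold in the first week only. In D7 vs D0, 4 were upregulated (CFP, C8G, C4BPA and C2) and 3 downregulated (F7, FGG and SERPINA5), where 9.5% of all genes were called (3.94% up and 5.56% down). The study drew its pathway list from genes that changed in these jejunum samples, so the 5 of 18 list members called (2 up and 3 down) are not independent evidence, and among the 17 members found by symbol alone 2 were up (CFP and C2) and 0 down. At any fold, 20 of 35 had an FDR under 0.05, where 25.6% of all genes did. The median log2 change was 0.57 over the list members and 0.09 over the members found by symbol alone, beside -0.10 over all genes. With median-ratio scaling 6 members were up and 3 down, and all genes called went from 531 up and 748 down to 649 and 591.

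C4BPA had the widest change. Its jejunum level was 3, 4 and 2 CPM at D0 and 80, 85, 81, 74 and 61 CPM at D7, and it was 72 to 133 CPM at D21 and 88 to 142 CPM at D42. The D0 and D7 libraries did not overlap, and the increase was 19.6-fold (log2 4.29 ± 0.18, FDR = 4.67e-07). CFP went from 22, 19 and 12 CPM to 105, 66, 86, 66 and 79 CPM (4.42-fold, FDR = 8.08e-05). C8G, the gamma chain of C8, went from 14, 13 and 5 CPM to 106, 49, 39, 65 and 32 CPM (5.01-fold, FDR = 0.00212). C2 went from 25, 14 and 27 CPM to 46, 61, 70, 62 and 54 CPM (2.66-fold, FDR = 0.00101), and was not called with all groups in 1 fit (FDR = 0.152).

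The downregulated genes called were F7, FGG and SERPINA5. Of the other coagulation factor genes, the means of F5 and F3 rose and those of F8 and F13A1 fell, and none of these was called. F5 was 34 to 44 CPM at D0 and 55 to 102 CPM at D7, and F8 was 39 to 44 CPM and 15 to 32 CPM. SERPINA5 went from 642 to 811 CPM at D0 to 32 to 290 CPM at D7, with no overlap and with a wide spread among the D7 libraries (7.03-fold lower, FDR = 0.00762). F7 went from 54, 65 and 51 CPM to 25, 23, 23, 22 and 21 CPM (2.41-fold lower, FDR = 8.01e-05). FGG went from 20, 34 and 45 CPM to 8, 4, 5, 30 and 3 CPM, and with D7 replicate 4 at 30 CPM the groups overlapped (4.02-fold lower, FDR = 0.0292). The FGG call was lost in 6 of the 8 fits that left out 1 library, with an FDR of up to 0.132. CFB, C9 and A2M were among the members with an FDR above 0.05 (0.599, 0.183 and 0.822). Of the 10 intestinal epithelial markers 3 were higher at D7, and their part in these changes was not tested.

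**Figure D5:**
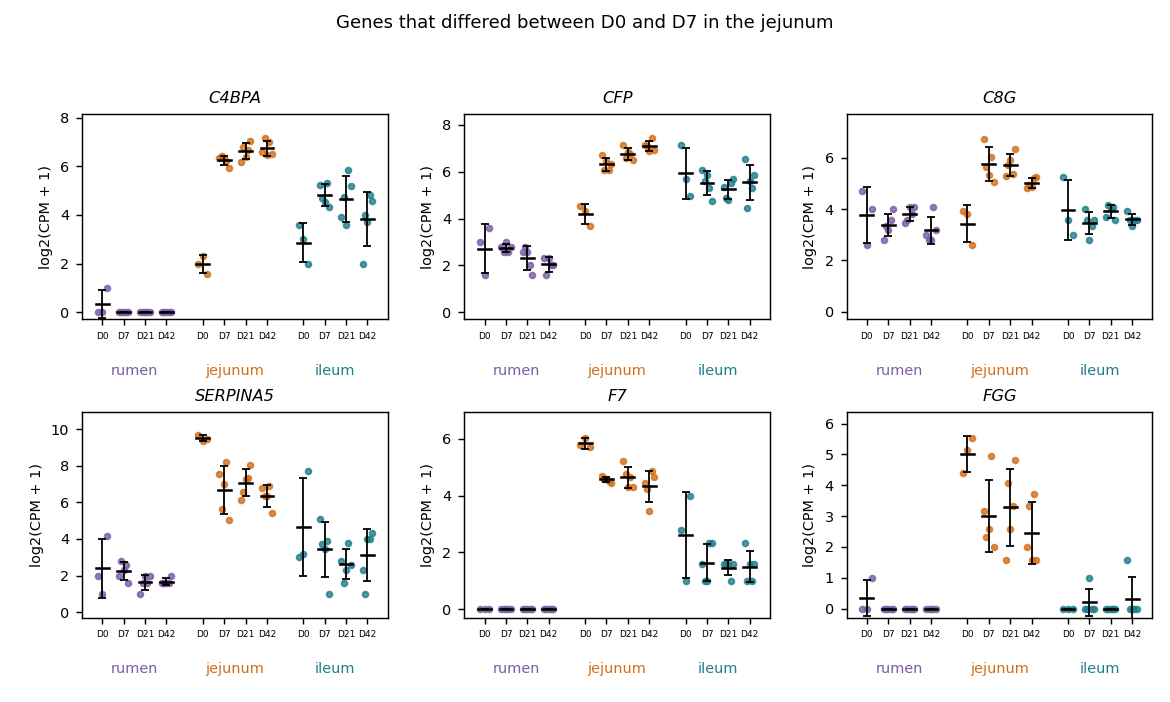
Level in log2(CPM + 1) of 6 of the 7 genes called in the jejunum in D7 vs D0, by region and age. Points are libraries (3 at D0, 5 at later ages), lines the group mean and bars 1 SD. C4BPA, CFP and C8G lie higher at D7 than at D0 in the jejunum, and SERPINA5, F7 and FGG lie lower.

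No member was called in the other 8 comparisons of adjacent ages with limma. At an unadjusted p under 0.05 there were 14 of 35 members in the jejunum in D21 vs D7, beside 768 of 13465 genes. In D42 vs D21 there were 6, beside 790 genes. Over the 3 intervals in order there were 6, 3 and 1 of 34 in the ileum, beside 2125, 1453 and 338 of 13457 genes. In the rumen there were 1, 11 and 3 of 26, beside 957, 2115 and 692 of 12900 genes. By FDR and fold, 0% of all genes were called in 7 of these comparisons and 0.062% in the rumen in D21 vs D7. In the ileum the D0 group contained the 2 doubted libraries, and C4BPA there was 11, 7 and 3 CPM at D0 and 37, 25, 22, 39 and 19 CPM at D7, which did not overlap and was not called (3.89-fold, FDR = 0.309). Without these 2 libraries 1 ileum library is left at D0, which has no spread of its own, so no count is given. In the rumen, leaving out D0 replicate 2 gave 5 members lower at D7 than at D0, and the share of all genes in that fit is not given here.

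The change from D0 to D7 was then compared between regions as an interaction. Both tests use the same jejunum libraries. C4BPA, C8G and F7 are on the study's pathway list, which was drawn from genes that changed in these jejunum samples. Their calls here are therefore not independent evidence, while CFP and F8 were found by symbol alone. Between jejunum and ileum 4 members differed, 3 with the more positive change in the jejunum and 1 with the more negative, where 9.56% of all genes did (1.81% and 7.75%, or 431 and 668 genes in place of 253 and 1080 with median-ratio scaling). The log2 change in the jejunum exceeded that in the ileum by 2.54 ± 0.55 for CFP (FDR = 0.0148), by 2.81 ± 0.68 for C8G (FDR = 0.0223) and by 2.33 ± 0.44 for C4BPA (FDR = 0.00925). For F8, which encodes the cofactor of factor IX and went from 39, 44 and 41 CPM to 15, 19, 21, 32 and 31 CPM in the jejunum and from 17, 18 and 29 CPM to 35, 34, 36, 34 and 30 CPM in the ileum, the difference was -1.51 ± 0.32 (FDR = 0.0136). The 2 doubted ileum libraries held 138 and 51 CPM of CFP and 37 and 11 CPM of C8G. Without them the differences were 1.57 for CFP, 1.87 for C8G, 1.47 for C4BPA and -1.05 for F8. That fit leaves 1 ileum library at D0, so no count or FDR is given for it. Without jejunum D0 replicate 3, CFP and C8G were not called (FDR = 0.0511 and 0.068).

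Between rumen and jejunum, 2 of the 26 members that passed the filter in both regions differed, both with the more negative change in the rumen, where 0.902% of the genes that passed in both did so and 1.76% had the more positive change. The log2 change in the rumen minus that in the jejunum was -2.71 ± 0.67 for C8G (FDR = 0.0323) and -2.11 ± 0.48 for CFP (FDR = 0.0215). C4BPA and F7 were also called, which makes 4 of 35 where 3.37% of all genes tested were called (1.88% and 1.49% by direction). F7 was listed at 0 in the rumen at both ages and C4BPA at 0 in all but 1 library (1 CPM), so these calls rest on the jejunum's own change with the sign turned and are no test of the rumen. C8G in the rumen was 25, 5 and 15 CPM at D0 and 6, 9, 8, 11 and 15 CPM at D7, and its call was lost in 10 of the 16 fits that left out 1 library. CFP was lost without rumen D0 replicate 1 or jejunum D0 replicate 3 (FDR of up to 0.0837). With the replicate number as a block, neither C8G nor CFP was called (limma, FDR = 0.103 and 0.0788). Without rumen D0 replicate 2, 15 members were called, and the share of all genes in that fit is not given here.

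Another 11 genes of the same pathways, VWF, PLAU, PROCR, F2R, F2RL1, F2RL3, C1RL, CLU, ITGAM, ITGB2 and CR2, were tested beside the members. At D7, 2 were higher in the jejunum (F2RL1 and F2RL3, receptors cut by trypsin and thrombin) and 4 were lower, beside 9.62% and 17.5% of all genes. CR2, a complement receptor of B cells and follicular dendritic cells, differed most, with a mean of 24.6 CPM in the jejunum and 694.2 CPM in the ileum at D7 (30.8-fold, FDR = 2.38e-07). The others were CLU, which encodes the terminal complex inhibitor clusterin (533.2 against 1202.2 CPM, 2.26-fold, FDR = 1.06e-05), and the complement receptor chains ITGAM and ITGB2. At D0 none of the 11 was called between jejunum and ileum, at D21 2 were higher in each region, and at D42 the jejunum was higher for 1 and the ileum for 2. In the jejunum in D7 vs D0, 2 were upregulated (F2RL3 and C1RL, log2 1.34 and 1.88) and 0 downregulated, beside 3.94% and 5.56% of all genes.

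Several members lie close together in the RefSeq gene order, and their levels were compared across the 18 libraries of a region. C1QA, C1QC and C1QB lie on chromosome 2 with 1 further coding gene between C1QC and C1QB, and their levels had correlations of 0.93 to 0.99 with each other in each region. For C1R and C1S, neighbours on chromosome 5, they were 0.96 in the rumen, 0.97 in the jejunum and 0.98 in the ileum. For C2 and CFB, neighbours on chromosome 23, they were 0.38, 0.23 and 0.58, and for C6 and C7, with 1 gene between them on chromosome 20, they were 0.47, -0.41 and -0.19. These are descriptions over libraries that share their ages and their scaling. The remaining members varied little between regions, namely C1QBP, a mitochondrial protein that binds C1q (group means of 70.7 to 122.8 CPM over the 3 regions), and C1QTNF5 (8.6 to 20.7 CPM), and neither was called in any comparison.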

How the data were processed

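RNA of whole rumen, mid-jejunum and ileum tissue was sequenced on paired-end, unstranded TruSeq libraries. The authors called bases with CASAVA, aligned reads with TopHat2 to the UMD 3.1 cattle genome and counted them per Ensembl gene with htseq-count. The deposited values are CPM rounded to whole numbers by the authors, treated here as a score with a step of 1 CPM, summing to 970214 to 984626 per library. Depth and counting error are therefore unknown, and no count model was used. Each file held 21510 genes, and the 17 distal jejunum files were identical to ileum files of the same age and number and were not used.

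Groups followed the sample labels. Each comparison was fitted on its own groups with limma 3.58.1 (R 4.3.3, empirical Bayes with a mean trend) on log2(CPM + 1), for genes above 1 CPM in at least 50% of a region's libraries (either region for regional comparisons), with Benjamini-Hochberg adjustment over all genes. Genes with an FDR under 0.05 and a change over 2-fold were called. For the rumen, counts were also taken from the same fits over genes that passed in both regions, a choice made after seeing the data. The scripts were tested on simulated data. Tables and figures were made in Python 3.11.15. Alternatives were another added value before the log, no filter, all groups in 1 fit, median-ratio scaling, a replicate block and leaving out each library. Leaving out the 3 doubted libraries was added after seeing the data.

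The members, the lists and the rule for named genes were chosen with earlier results of these data known. Values by sample were given for up to 3 called members with the largest positive and up to 3 with the largest negative change in each comparison, and for the member with the largest called change of each class. C1QA, C1R, C4A and F3 were added after their values were seen. 1 member is counted but not reported here by name. Gene names were matched through tables of the study and RefSeq (ARS-UCD2.0, used for names and gene order only). Jejunum and ileum samples of the same age and number came from the same calf. Their mean correlation of deviations from group means was -0.0166, 0.116, 0.141 and -0.0635 at D0, D7, D21 and D42.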

Additional observations from a re-analysis of the deposited data

Results flagged for a closer look

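In 153 groups of 5 libraries, a library was marked where its gap to the nearest other, divided by the range of the group, was above 0.71. Chance gives this in about 1 of 20 groups of continuous, normal values. The values here are whole CPM, where a step of 1 CPM from tied values is marked too, and groups share libraries. The count of 21 marked groups is therefore not compared with that rate. In the ileum at D42, the doubted replicate 1 was marked for F5 (96 CPM, others 20 to 41), F8 (60 CPM, others 24 to 33), C1QTNF6 (40 CPM, others 77 to 90) and C1QTNF7 (15 CPM, others 3 to 6). In the ileum at D21, replicate 5 was marked for C6 (65 CPM, others 13 to 27) and SERPINF2 (3 CPM, others 1), replicate 3 for F8 (17 CPM, others 25 to 28) and F13A1 (10 CPM, others 15 to 17), replicate 4 for F7 (1 CPM, others 2) and replicate 1 for C1QTNF7 (6 CPM, others 7).

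In the jejunum at D42, replicate 3 was marked for C6 (77 CPM, others 163 to 193), F13A1 (32 CPM, others 8 to 11) and A2M (943 CPM, others 492 to 575). In the jejunum at D21, replicate 3 was marked for C5AR1 (12 CPM, others 5 to 7) and A2M (742 CPM, others 427 to 479), and at D7 replicate 4 for FGG (30 CPM, others 3 to 8). In the rumen these were A2M in D7 replicate 1 (2345 CPM, others 708 to 1142), C1QTNF1 in D21 replicate 3 (76 CPM, others 24 to 33), and at D42 C2 in replicate 3 (8 CPM, others 3 to 4), C8G in replicate 4 (16 CPM, others 6 to 8) and SERPINA5 in replicate 5 (3 CPM, others 2).

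The change from D0 to D7 differed between regions for 8 tests by the interaction in limma. C4BPA, C8G and F7 came from the study's list of genes that changed in the jejunum, so their differences are not independent evidence. Between jejunum and ileum the log2 differences were 2.54 for CFP, 2.81 for C8G, 2.33 for C4BPA and -1.51 for F8. Without the doubted ileum libraries, a fit that leaves 1 ileum library at D0, all were smaller in size. Between rumen and jejunum they were -2.11 for CFP, -2.71 for C8G, -4.63 for C4BPA and 1.27 for F7. C4BPA and F7 stood at 0 or 1 CPM in these rumen libraries, so their values rest on the jejunum's change with the sign turned.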

How the results depend on the processing

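No called member changed direction under any alternative run. With the replicate block, 0 members were called between jejunum and ileum at D0 (0.0143% of all genes). In the rumen and jejunum interaction 1 was called (1.81% of all genes). This was C4BPA, with the more negative change in the rumen, whose call is no test of the rumen. C8G and CFP were not called there (limma, FDR = 0.103 and 0.0788). Rumen samples share only a number with the intestinal ones, with mean correlations of 0.0771, -0.132, 0.167 and 0.115 with the jejunum at D0, D7, D21 and D42. The block changed no other count of calls by over 1.5 times. With all groups in 1 fit, 26 members were called between rumen and jejunum at D0 (29.6% of all genes) and 20 between rumen and ileum at D0 (29.4%). In D7 vs D0, 1 rose in the ileum (4.14% of all genes called) and 1 fell in the rumen (2.22%). In D21 vs D7, 1 fell in the rumen (0.256%). Between rumen and ileum at D0, 2 were called with no filter (3.9% of all genes). The called differences in the jejunum and ileum interaction were smaller without the doubted libraries, which leaves 1 ileum library at D0. The cause was not tested. Leaving out 1 library gave 0 to 11 calls between jejunum and ileum at D0 (0 without jejunum replicate 2, 11 without ileum replicate 1), 10 to 22 between rumen and jejunum at D0 (22 without rumen replicate 2), 1 to 5 between rumen and ileum at D0, 0 to 5 in the rumen in D7 vs D0 (5 without D0 replicate 2), 2 to 7 in the jejunum and ileum interaction (7 without ileum D0 replicate 2) and 2 to 15 in the rumen and jejunum interaction (2 without jejunum D0 replicate 3, 15 without rumen D0 replicate 2). The shares of all genes called in the fits that left out 1 library are not given here. Changes of genes near 1 CPM are limited by the rounding.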
